A study of Homo sapiens with 6 samples.

Results

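A set of 56 genes whose products build the kinetochore, run the spindle checkpoint, drive mitosis and end it was followed, out of 33890 genes with a value, in LN229 cells with and without ursodeoxycholic acid. The genes were listed by function: subunits of the inner and outer kinetochore, the spindle checkpoint, the chromosomal passenger complex, mitotic kinases and CDC25 phosphatases, the anaphase-promoting complex and its substrates, spindle and chromosome proteins, and cytokinesis proteins. Kinesins named KIF were left out. The list was made with earlier results of these data known. All 56 were present by symbol. LN229 is an established human glioblastoma line (grade IV glioma) grown attached in serum-containing medium, and ursodeoxycholic acid (UDCA) is a secondary bile acid given as a drug in cholestatic liver disease. Polyadenylated RNA was sequenced from 3 libraries of untreated cells (control) and 3 libraries of cells kept in 800 µM UDCA for 48 h, both from the same line and medium. No vehicle for the control cells is named in the labels. Whether libraries of the same group are separate cultures is likewise not in the labels, so each p-value measures the spread between libraries only, and that spread may be technical. The results are those of 1 cell line at 1 dose and 1 time.

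The kinetochore is the protein assembly on each centromere that holds spindle microtubules. Its inner layer sits on nucleosomes that carry the histone variant CENPA, its outer layer binds microtubules through the NDC80 and SKA complexes, and unattached kinetochores load checkpoint proteins that keep CDC20 from activating the anaphase-promoting complex, a ubiquitin ligase. Once every chromosome is attached, this ligase marks securin and cyclin B for destruction, separase cuts cohesin, and the cell leaves mitosis. Messages of most of these genes are made from late S phase to mitosis in dividing cells, and their promoters are known for paired elements called CHR (cell cycle genes homology region) and CCAAT boxes, bound by the MuvB complex and by NF-Y.

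Recovered reads came to between 16639832 and 17743022 in the control libraries and between 15988951 and 17045218 in the UDCA libraries, so 3 reads in a gene of 1 kb correspond to 0.169 to 0.188 FPKM. FPKM is a read count divided by exon length and by the library's total of reads. The length here is that of all annotated exons of a gene merged, which need not be the length of the message made. Levels of different genes can therefore be set side by side only roughly. Mitochondrially encoded transcripts held 3.13% to 3.16% of reads in the control libraries and 0.0263% to 0.0271% in the UDCA libraries. Of 8 glial and neural progenitor markers, 7 were tested. With UDCA 5 were lower and EGFR was higher, where 35.7% of all tested genes were called lower and 45.1% higher. The summed level of the 8 markers was 749 to 765 FPKM in the control libraries and 164 to 167 FPKM in the UDCA libraries. SOX2 was left at 3.35% and S100B at 4.38% of control. GFAP, the defining astrocyte marker, stayed between 0.446 and 0.660 FPKM in all 6 libraries. Summed immune markers stayed at or under 0.0711 FPKM, endothelial markers at or under 0.682 FPKM, epithelial markers were 3.36 to 3.87 FPKM against 5.45 to 6.13 FPKM (KRT8), and neuronal markers 10.5 to 11.6 against 17.7 to 20.4 FPKM, with SYT1 higher and SNAP25 lower, control against UDCA. The part of these shifts in the results below was not tested.

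The messenger RNA of most mitotic genes fell to under a few percent of its control level in the UDCA libraries, while BUB3 kept 77.6% and ANAPC5 89.2% of it and CDC16 rose. The summed level of the 56 genes was 1926, 1917 and 1932 FPKM in the 3 control libraries and 116, 118 and 117 FPKM in the 3 UDCA libraries, a mean of 1925 ± 7.45 against 117 ± 0.944 (SD, n = 3 each), 16.5-fold lower. The groups did not overlap, and the exact permutation p of 0.1 (2-sided) is the smallest that 3 against 3 allows. Their share of all reads was 0.864% ± 0.00788 in control and 0.0644% ± 0.000476 with UDCA. In bulk RNA of this kind, fewer cells in mitosis and less RNA per cell cannot be told apart. Of the 56 genes, 30 were left at under 1% of their control mean, 17 at 1% to 10%, 8 at 10% to 100%, and 1, CDC16, was above it. The median gene was left at 0.870% of control, where the median over all 14380 genes tested was 108%. Of all tested genes, 0.793% (114 genes) were left at under 1%, and 30 of those 114 were these mitotic genes, while 3.39% of tested genes were left at under 10%. Each of these 30 passed the filter on low values only with control libraries counted. The list was also made with earlier results known, so the overlap is a description and not a test.

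By limma on log2(FPKM + 1) with Benjamini-Hochberg adjustment over all 14380 genes tested, 53 of the 56 genes were lower, CDC16 was higher, and NUSAP1 and PRC1 were too low to be tested. In the same fit 35.7% of tested genes were called lower and 45.1% higher. Of the 54 tested genes, 40 had at least 1 UDCA library under 1 FPKM. These passed the filter on low values only with control libraries counted, which favours falls. The count over the tested genes is therefore not read further. In a fit with no filter, over 33890 genes, 55 of the 56 were lower and 1 higher, against 19.8% and 22.8% of genes. The control and UDCA libraries did not overlap in any of the 56 genes, 55 of them lower and 1 higher. Among tested genes 36.7% stood apart in this way in the lower direction and 46.1% in the higher, and of the 33890 genes 23.4% did in the lower direction and 27.1% in the higher. The median log2 change over all 56 was -3.97, on a scale that makes changes of low genes look smaller than they are, and 39 genes were under 1 FPKM in every UDCA library. For this reason the level left, as a percentage of the control mean, is given beside the log2 change of each gene. Differences between genes in the level left were not tested.

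**Figure D1:**
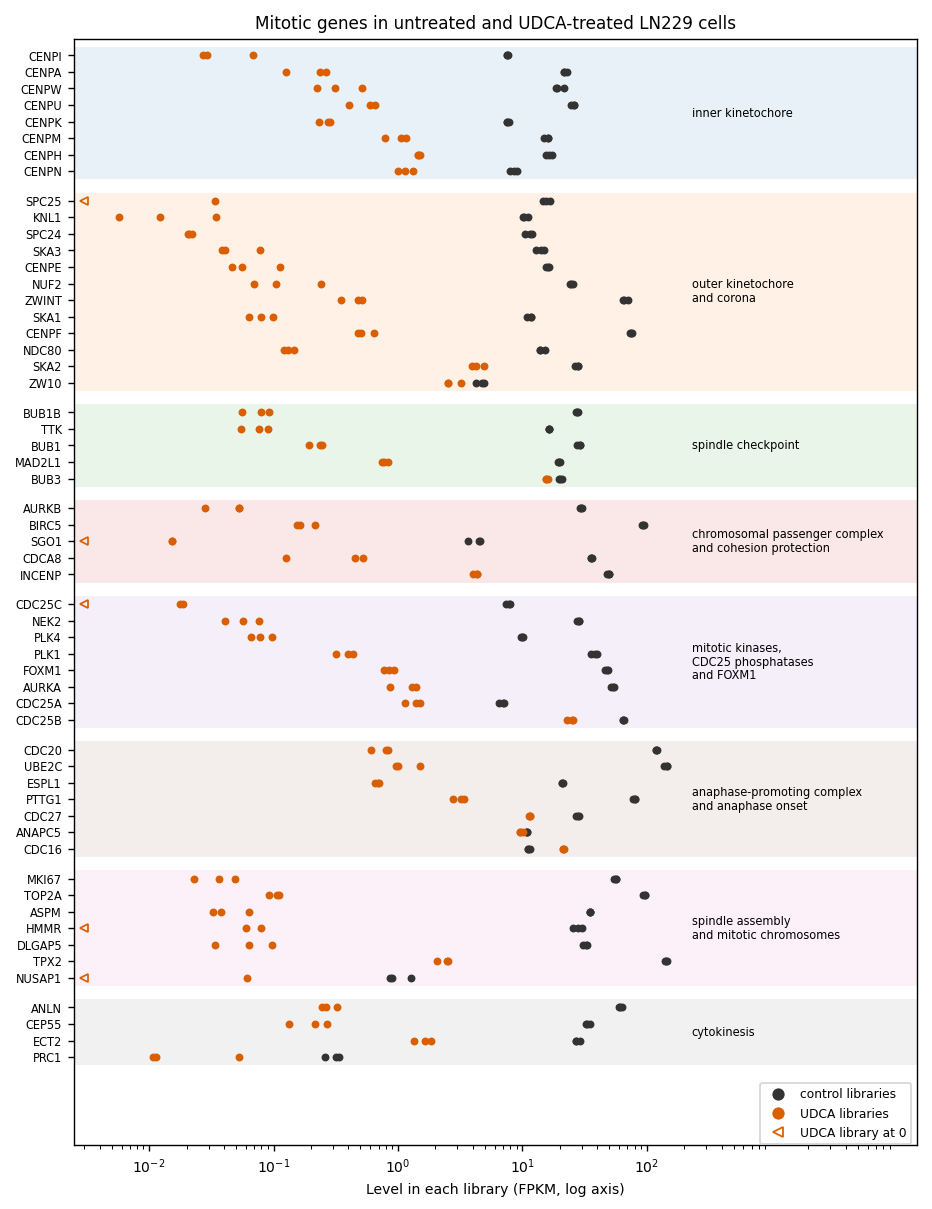
Level of each of the 56 genes in every library, in FPKM on a log axis, by role group from the lowest to the highest level left, with control libraries in black, UDCA libraries in orange and a triangle at the left where at least 1 UDCA library was at 0. The UDCA points lie to the left of the control points for every gene but CDC16, and the gap is narrow for ANAPC5, BUB3 and ZW10.

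Promoter sequence is shown here because genes of this kind are known to share promoter elements and most of them moved together. RefSeq windows of 250 bases before to 50 bases after a transcription start (GRCh38.p14) were given for 46 of the 56 genes, 58 windows in all. CENPH, CENPM, KNL1, BUB3, TTK, BIRC5, AURKA, FOXM1, UBE2C and TPX2 have no entry there. In the stretches below, written 5′ to 3′ in the direction of the gene, capitals mark TTTGAA (the CHR core), TTTAAA (a CHR-like form) and CCAAT, on either strand, so that TTCAAA and ATTGG are the same elements on the other strand. Each stretch ends before the first exon base that GENCODE 29 gives to any transcript there. MKI67, the gene with the lowest level left (0.0644% of control), is shown from chr10:128126424-128126543, minus strand, and its TTTGAA nearest the start overlaps an ATTGG. CDC20, activator of the anaphase-promoting complex, is shown from chr1:43358861-43358954, plus strand, ESPL1 (separase) from chr12:53268179-53268298, plus strand, and ZWINT, an outer kinetochore gene with the CHR on the other strand, from chr10:56361276-56361393, minus strand. NEK2 (chr1:211675631-211675741, minus strand) is a gene left at 0.204% with CCAAT boxes but no TTTGAA in its window. CDC25A (chr3:48188418-48188537, minus strand), left at 19.6%, likewise has CCAAT boxes and no TTTGAA in its window, and also the E2F-like motif TTGGCGC, which is not capitalised. CDC16 (chr13:114234777-114234886, plus strand), the gene that rose, has none of the marked elements in this stretch, but its window holds a CCAAT further upstream, outside the stretch. The CDC16 stretch does hold another E2F-like motif, TTCCCGC, also not capitalised.
MKI67: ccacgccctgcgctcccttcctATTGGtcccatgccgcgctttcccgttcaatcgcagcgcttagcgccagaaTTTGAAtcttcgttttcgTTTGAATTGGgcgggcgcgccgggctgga
CDC20: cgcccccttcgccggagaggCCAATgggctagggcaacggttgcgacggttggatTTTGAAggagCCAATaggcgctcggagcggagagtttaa
ESPL1: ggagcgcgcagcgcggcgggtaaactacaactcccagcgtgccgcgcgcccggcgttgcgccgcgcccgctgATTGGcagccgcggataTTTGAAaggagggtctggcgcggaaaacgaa
ZWINT: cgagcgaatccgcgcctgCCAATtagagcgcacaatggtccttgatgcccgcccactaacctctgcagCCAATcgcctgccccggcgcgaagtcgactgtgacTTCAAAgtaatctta
NEK2: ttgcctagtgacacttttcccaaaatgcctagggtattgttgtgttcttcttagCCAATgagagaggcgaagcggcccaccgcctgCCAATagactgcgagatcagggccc
CDC25A: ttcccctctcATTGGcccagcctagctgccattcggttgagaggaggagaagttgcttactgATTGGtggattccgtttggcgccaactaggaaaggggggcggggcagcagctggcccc
CDC16: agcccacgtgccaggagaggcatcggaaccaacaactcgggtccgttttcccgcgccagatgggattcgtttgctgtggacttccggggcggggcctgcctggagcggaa

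TTTGAA was present on either strand in 29 of the 46 genes with a window (63.0%), where 18.2% of 27305 genes had it. Counted by window, it was in 32 of 58 (55.2%) against 15.2% of 35116 windows of the same length. CCAAT was present in 38 of 46 genes (82.6%) against 39.7% of all genes. TTTAAA was found in 17.2% of the 58 windows against 12.2% of all windows, and the E2F-like motifs TTCCCGC and TTGGCGC in 19.0% against 6.55% and in 12.1% against 3.04%. The 43 matches to TTTGAA, 31 forward and 12 reverse, were counted per window. A site in overlapping windows of the same gene (ECT2, CDC25C, ZWINT) was therefore counted again. The matches gathered near the start: 25 of the 46 genes (54.3%) had one between 60 bases before and 50 bases after it, against 6.26% of all genes. Among genes left at under 1% of control, 19 of the 26 with a window held TTTGAA, among those left at 1% to 10% it was 8 of 12, and among those left at 10% or more it was 2 of 8, CENPN and ZW10. CCAAT was in 18 of 26, 12 of 12 and 8 of 8 genes of the same bands. The bands and the window of 60 bases were chosen after the values were seen. A match is a run of letters and not evidence of binding.

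**Figure D2:**
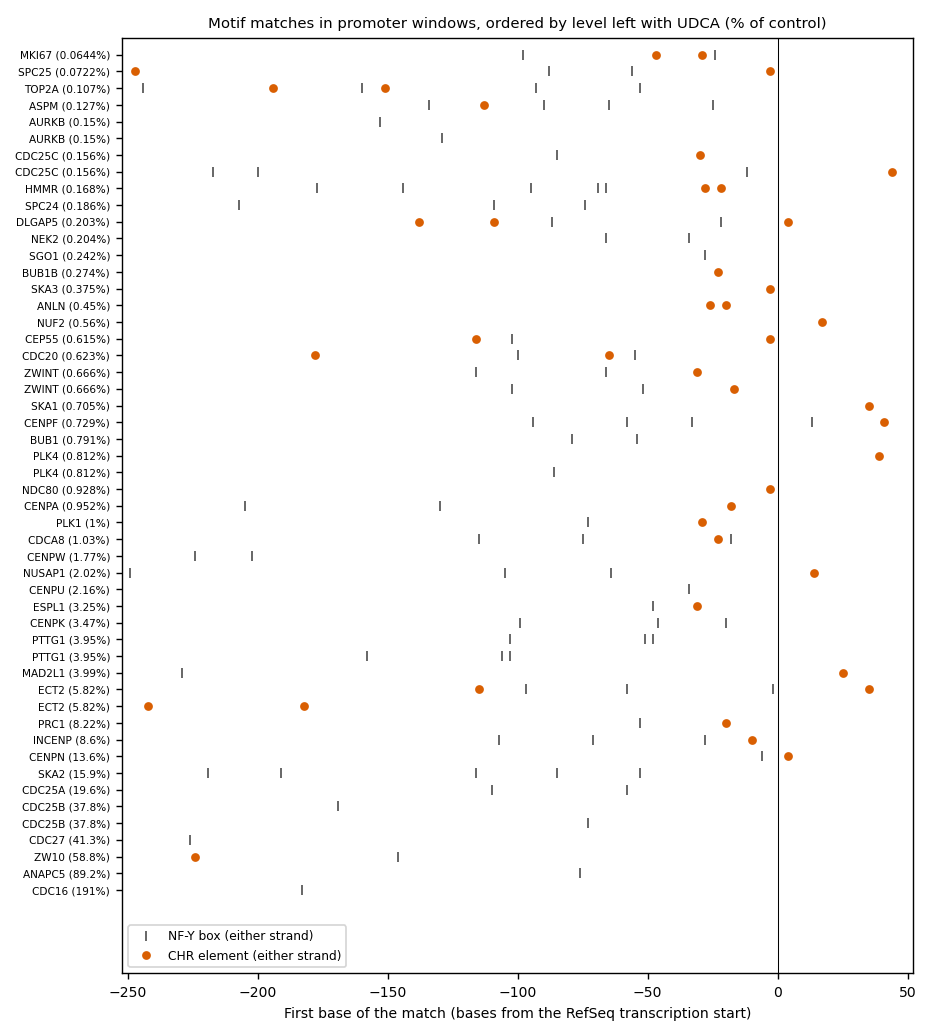
Position of TTTGAA (CHR element, orange dots) and CCAAT (NF-Y box, grey ticks) on either strand, in bases from the RefSeq start at 0, for each window with at least 1 match, ordered from the lowest level left with UDCA at the top to CDC16 at the bottom. Orange dots lie mostly from 60 bases before to 50 bases after the start and become rare among the genes left at 10% or more, where only CENPN and ZW10 have one.

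All 8 inner kinetochore genes fell, and they were left at 0.548% to 13.6% of control, with a median of 2.82%. CENPA (ENSG00000115163, chromosome 2, 26764289 to 26801067, GRCh38), the histone H3 variant that marks the centromere, stood at 21.5, 22.8 and 21.8 FPKM in control and at 0.126, 0.266 and 0.238 FPKM with UDCA. Every control library was far above every UDCA library, at 105-fold by the means (log2 change -4.25, SE 0.0587, adjusted p = 4.37e-09, limma). The other genes of this layer encode subunits of the constitutive centromere network that sits on CENPA nucleosomes. CENPI was lowest at 0.548%, from 7.48, 7.49 and 7.68 FPKM to 0.0289, 0.0679 and 0.0273 FPKM. CENPW was left at 1.77%, CENPU at 2.16%, CENPK at 3.47%, CENPM at 6.40% and CENPH at 8.93%. CENPN, which binds the CENPA nucleosome itself, kept the most, with 7.97, 9.07 and 8.53 FPKM in control and 1.33, 1.13 and 1.01 FPKM with UDCA (log2 change -2.14, SE 0.0746, adjusted p = 2.83e-07, limma). Its exons share 22.8% of their bases with other genes, and how reads there were assigned is not known. CENPN and CENPH were the genes of the layer above 1 FPKM in every UDCA library.

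The 12 genes of the outer kinetochore and its fibrous corona fell, 10 of them to under 1% of control, and SKA2 and ZW10 were left at 15.9% and 58.8%. The 4 subunits of the NDC80 complex, the main microtubule-binding rod, were all among the 10. NDC80 (ENSG00000080986, chromosome 18, 2571511 to 2616635) went from 15.3, 13.8 and 13.9 FPKM to 0.122, 0.130 and 0.147 FPKM, 108-fold lower (log2 change -3.76, adjusted p = 6.51e-09, limma), with no overlap between the groups. Its partner NUF2 was left at 0.560%. SPC24 had 3 reads in all UDCA libraries against 1661 in all control libraries, which is 0.186% of control after scaling to total reads (95% interval 0.0384% to 0.545%, exact, counting error only). SPC25 had 1 read against 1489, or 0.0693% (0.00175% to 0.387%). Reads from SPC24 and SPC25 were thus close to the detection limit in every UDCA library. NDC80 had 7, 8 and 9 reads in these libraries, and NUF2 had 13, 4 and 6. KNL1, the scaffold that recruits checkpoint proteins, was left at 0.166%, and its partner ZWINT fell from 64.5, 70.7 and 65.7 FPKM to 0.473, 0.518 and 0.347 FPKM (0.666%). CENPF, a large corona protein, had the largest log2 change of the layer, from 74.5, 73.8 and 76.5 FPKM to 0.647, 0.482 and 0.509 FPKM (log2 change -5.62, SE 0.0474, adjusted p = 6.43e-10, limma). The corona motor CENPE was left at 0.444%.

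The SKA complex, a heterotrimer that follows microtubule ends, was unequal in its 3 subunits. SKA1 was at 11.7, 11.8 and 11 FPKM in control and at 0.0636, 0.0795 and 0.0998 FPKM with UDCA, and SKA3 at 12.8, 14.8 and 14.2 against 0.0410, 0.0385 and 0.0773 FPKM. SKA2 was at 27.9, 26.5 and 28.1 FPKM against 4.25, 4.90 and 3.95 FPKM. All 3 fell without overlap, but SKA2 was left at 15.9% where SKA1 was left at 0.705% and SKA3 at 0.375%. In control libraries SKA2 was already the highest of the 3 per length. ZW10 (ENSG00000086827, chromosome 11, 113733187 to 113773811), a subunit of the RZZ complex of the corona that also serves in membrane traffic between the endoplasmic reticulum and the Golgi, was at 4.74, 4.93 and 4.28 FPKM in control and at 2.51, 2.51 and 3.19 FPKM with UDCA. Its groups stood apart by a narrow gap, and the log2 change was -0.60 (SE 0.0875, adjusted p = 0.000541, limma). Of the other subunits of that complex, not among the 56, KNTC1 was left at 6.15% and ZWILCH at 10.2%.

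**Figure D3:**
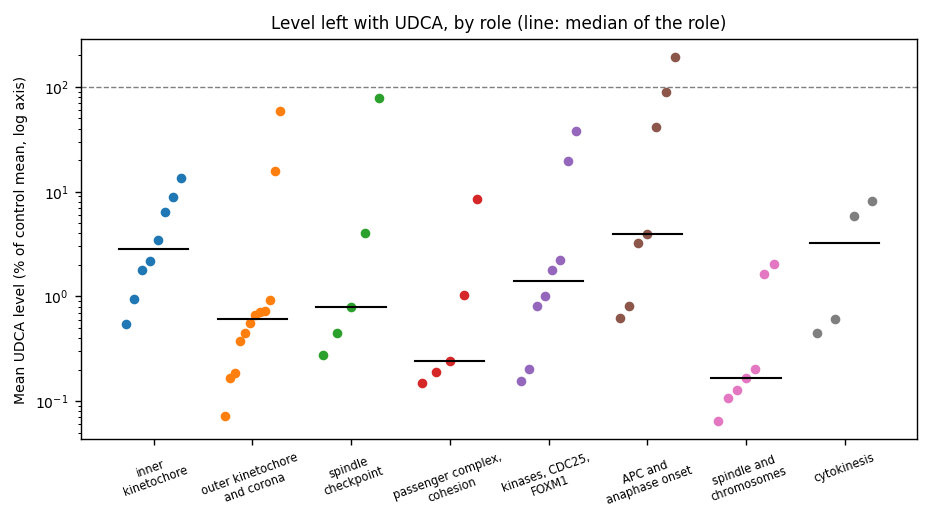
Level left with UDCA as a percentage of the control mean for each of the 56 genes (log axis), by role group, with a black line at the median of the group and a dashed line at 100%. Medians lie between 0.168% and 3.95%, and the 1 point above the dashed line is CDC16, at 191%.

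The 5 spindle checkpoint genes fell, 4 of them 25.1-fold or more and BUB3 1.29-fold. BUB1, the kinase that marks centromeric chromatin for the passenger complex, was at 29.2, 27.3 and 29.1 FPKM in control and at 0.238, 0.195 and 0.244 FPKM with UDCA (log2 change -4.59, SE 0.0455, adjusted p = 1.14e-09, limma). BUB1B, which encodes the checkpoint protein BUBR1, had the largest change of the group, from 28.3, 27.6 and 26.9 FPKM to 0.0559, 0.0917 and 0.0790 FPKM (log2 change -4.73, adjusted p = 7.98e-10, limma). TTK, the kinase at the top of the checkpoint, was left at 0.451%. MAD2L1, whose product MAD2 holds CDC20 inactive, kept more of its message, at 20.2, 19.6 and 19.3 FPKM against 0.773, 0.837 and 0.748 FPKM (3.99%). BUB3 (ENSG00000154473, chromosome 10, 123154277 to 123170467), the adaptor through which BUB1 and BUBR1 reach the kinetochore, was at 20.9, 20.1 and 19.8 FPKM in control and at 16.1, 15.6 and 15.5 FPKM with UDCA. The drop to 77.6% was larger than the spread within either group (log2 change -0.35, SE 0.0315, adjusted p = 4.17e-05, limma). In control libraries BUB3 was below BUB1 and BUB1B and overlapped MAD2L1, and with UDCA it was the highest of the 5 in every library.

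The chromosomal passenger complex corrects faulty attachments and later directs cytokinesis, and all 4 of its genes fell together with SGO1. AURKB, its kinase, was at 29.3, 30.0 and 29.5 FPKM in control and at 0.0279, 0.0524 and 0.0526 FPKM with UDCA, on 5 reads in all, 668-fold lower (log2 change -4.87, SE 0.0392, adjusted p = 5.45e-10, limma). BIRC5 (survivin) had the largest log2 change of the group and was left at 0.190%. CDCA8 (borealin) went from 36.3, 35.6 and 35.4 FPKM to 0.127, 0.451 and 0.525 FPKM, with the first UDCA library lowest. INCENP, the scaffold of the complex, was left highest, at 49.9, 47.6 and 49.8 FPKM against 4.32, 4.30 and 4.04 FPKM (8.60%). The level left thus ranged from 0.150% for AURKB to 8.60% for INCENP within 1 complex. SGO1 (shugoshin), which shields centromeric cohesin, was the lowest of the group in control libraries, at 4.49, 3.69 and 4.53 FPKM, and had 2 reads in all UDCA libraries against 837 in control, 0.246% (95% interval 0.0298% to 0.893%, exact). Because the gene started low, its log2 change of -2.37 (SE 0.0853, adjusted p = 3.35e-07, limma) was the smallest of the group.

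The mitotic kinases, the CDC25 phosphatases and the transcription factor FOXM1 all fell, to between 0.156% and 37.8% of control with a median of 1.39%. PLK1 (ENSG00000166851, chromosome 16, 23677656 to 23690367), the polo-like kinase of mitotic entry and exit, was at 38.6, 35.8 and 39.7 FPKM in control and at 0.315, 0.394 and 0.433 FPKM with UDCA, 99.9-fold lower (log2 change -4.82, SE 0.0550, adjusted p = 1.86e-09, limma). PLK4, the centriole duplication kinase, was left at 0.812%, and NEK2, a kinase of centrosome separation, at 0.204%. AURKA, the centrosomal Aurora kinase, was at 54.9, 52 and 53.6 FPKM against 1.39, 1.30 and 0.865 FPKM (2.22%), while AURKB of the passenger complex was left at 0.150%. FOXM1, an activator of mitotic gene promoters, was at 48.5, 46.0 and 48.4 FPKM against 0.843, 0.778 and 0.926 FPKM (log2 change -4.72, SE 0.0433, adjusted p = 8.78e-10, limma), with 15.9% of its exon bases shared with other genes.

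The 3 CDC25 phosphatases, which remove inhibitory phosphates from cyclin-dependent kinases, held both the lowest and the highest level left in this group. CDC25C (ENSG00000158402, chromosome 5, 138285265 to 138338355), which acts at mitotic entry, was at 7.99, 7.84 and 7.38 FPKM in control and at 0.0187, 0.0176 and 0 FPKM with UDCA. That is 2 reads against 1331, or 0.155% (95% interval 0.0188% to 0.561%, exact), with a log2 change of -3.11 (SE 0.0579, adjusted p = 1.60e-08, limma). CDC25A, which also acts at the start of S phase, was at 6.98, 7.12 and 6.46 FPKM against 1.14, 1.40 and 1.5 FPKM (log2 change -1.74, SE 0.0737, adjusted p = 7.56e-07, limma). CDC25B, known as a starter of mitosis at centrosomes, was at 64.3, 65.2 and 64.8 FPKM against 22.8, 25 and 25.6 FPKM (log2 change -1.37, SE 0.0425, adjusted p = 1.64e-07, limma). The groups did not overlap for any of the 3, and the level left was 0.156% for CDC25C, 19.6% for CDC25A and 37.8% for CDC25B. In control libraries CDC25B was already higher per length than the other phosphatases. With UDCA it alone made up 20.9% of the summed level of all 56 genes.

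Among genes of the anaphase-promoting complex and of anaphase onset, CDC20, UBE2C, PTTG1 and ESPL1 fell to 3.95% of control or less, while the core subunits CDC27, ANAPC5 and CDC16 stood at 41.3%, 89.2% and 191%. CDC20 (ENSG00000117399, chromosome 1, 43358955 to 43363203), the activator that the checkpoint restrains, was left at 0.623% (log2 change -6.11, SE 0.0526, adjusted p = 6.75e-10, limma). UBE2C, the enzyme that starts ubiquitin chains for the complex, was at 145, 146 and 139 FPKM against 1.51, 1.00 and 0.962 FPKM (0.807%). PTTG1 (securin), the inhibitor of separase, was at 80.3, 77.7 and 80.0 FPKM against 3.42, 3.21 and 2.78 FPKM, and ESPL1 (separase) at 21.3, 20.8 and 20.8 against 0.689, 0.653 and 0.702 FPKM. Securin and separase were left at 3.95% and 3.25%. PTTG1 has near-identical copies elsewhere in the genome, so its values are uncertain to the extent that reads were split among them.

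CDC16 (ENSG00000130177, chromosome 13, 114234887 to 114272723), a scaffold subunit of the ligase, was the gene of the 56 that rose. It was at 11.1, 11.1 and 11.6 FPKM in control and at 21.8, 21.4 and 21.3 FPKM with UDCA, 1.91-fold higher (log2 change 0.87, SE 0.0282, adjusted p = 1.98e-07, limma), on 2303 and 4256 reads in all. The UDCA libraries were all above the control libraries and had an SD of 0.246 FPKM. CDC27, a related scaffold subunit that binds the activators, went the other way, from 27.2, 27.8 and 28.4 FPKM to 11.4, 11.5 and 11.6 FPKM (41.3%, log2 change -1.21, SE 0.0268, adjusted p = 3.46e-08, limma). CDC27 also has near-identical copies in the genome, which makes its level uncertain. ANAPC5 was at 11, 11 and 10.8 FPKM against 9.58, 10.0 and 9.59 FPKM, a drop to 89.2% that did pass the test (log2 change -0.15, SE 0.0320, adjusted p = 0.00382, limma). Its groups did not overlap, and this was the smallest change among the tested genes of the 56. The directions of CDC16, CDC27 and ANAPC5 were the same under each scaling of the libraries that was tried.

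Of the 14 core subunits of the ligase, CDC16, CDC27 and ANAPC5 included, 13 were tested: 6 were lower, 4 were higher and 3 were not called, where 35.7% of all tested genes were called lower and 45.1% higher. Of the 3 not called, ANAPC1 and ANAPC4 were called lower with median-ratio scaling (adjusted p = 0.00497 and 0.0452, limma), and CDC26 was called higher without UDCA replicate 3 (adjusted p = 0.0155, limma). The core subunits were left at 14.8% to 191% of control with a median of 93.4%, and their summed mean level was 152 FPKM in control and 147 FPKM with UDCA. This grouping was made after the values were seen. The others that rose were ANAPC16 (1.52-fold), ANAPC13 (1.37-fold) and ANAPC7 (1.25-fold). ANAPC15 was the lowest, at 14.8%, with 27.1% of its exon bases under genes on the other strand. ANAPC10 was under the filter at 0.174 to 0.573 FPKM. Of the 2 activators, CDC20 was left at 0.623%, and FZR1, which takes over after anaphase and in G1, was at 12.3, 12.6 and 12.8 FPKM against 11.1, 11.4 and 11.4 FPKM (89.9%, adjusted p = 0.00356, limma).

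**Figure D4:**
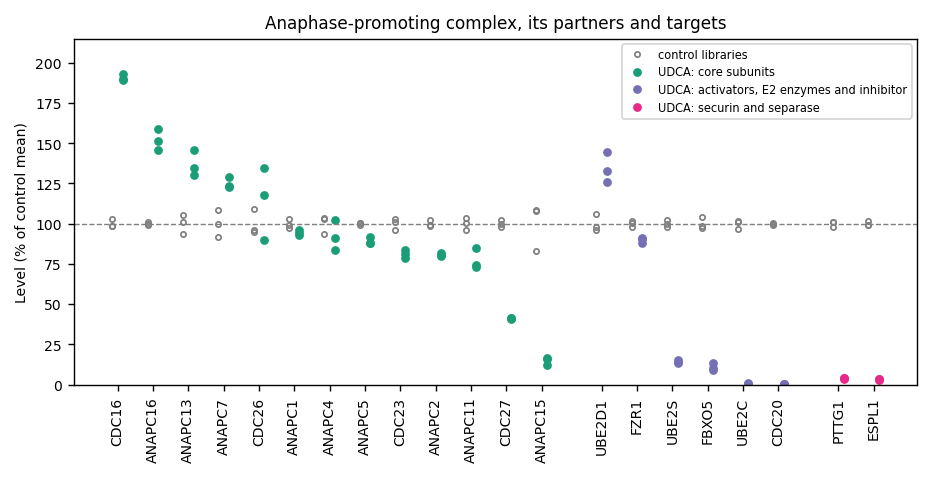
Level in each library as a percentage of the control mean of the gene (linear axis), for the 13 tested core subunits of the anaphase-promoting complex, its activators, enzymes and inhibitor, and securin and separase, with control libraries as open circles and UDCA libraries as filled dots. UDCA means of the core subunits spread from 14.8% (ANAPC15) to 191% (CDC16), FZR1 lies at 89.9%, and CDC20, UBE2C, PTTG1 and ESPL1 lie at 3.95% or less.

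Genes of spindle assembly and mitotic chromosomes held the lowest median level left of any role group, 0.168% over 7 genes. TOP2A, the topoisomerase that untangles sister chromatids, had the largest log2 change of the 56, from 97.0, 92.7 and 97.5 FPKM to 0.107, 0.0911 and 0.110 FPKM (log2 change -6.45, SE 0.0338, adjusted p = 1.51e-10, limma). MKI67, which coats mitotic chromosomes and is a marker of dividing cells, was at 56.2, 55.1 and 57.1 FPKM against 0.0488, 0.0366 and 0.0230 FPKM. ASPM, a spindle pole protein, was at 35.2, 34.9 and 35.2 FPKM against 0.0632, 0.0377 and 0.0325 FPKM, and DLGAP5, a microtubule stabiliser at kinetochore fibres, was left at 0.203%. HMMR, a spindle protein that also binds hyaluronan, was at 27.8, 25.4 and 29.9 FPKM against 0.0795, 0 and 0.0599 FPKM (log2 change -4.78, SE 0.0691, adjusted p = 5.55e-09, limma). TPX2, which activates AURKA on the spindle, was with UBE2C the most abundant of the 56 in control, at 142, 142 and 147 FPKM, and was left at 1.64%. No UDCA library reached a control library in any of these genes.

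NUSAP1, a microtubule bundling protein, was at 0.857, 1.27 and 0.902 FPKM in control and at 0, 0.0612 and 0 FPKM with UDCA, and was not tested. That is 3 reads against 150, or 2.06% (95% interval 0.421% to 6.15%, exact). In GENCODE 29 it shares 62.2% of its exon bases with AC087721.2 on the same strand, so its deposited level depends on how such reads were counted, which the sources do not give. The same holds for PRC1, the midzone protein of cytokinesis, with 58.4% of its exon bases shared. PRC1 was at 0.261, 0.316 and 0.337 FPKM in control and at 0.0113, 0.0531 and 0.0107 FPKM with UDCA, 87 reads against 7, and was not tested. AC068831.7, which overlaps it on the same strand, was at 1.99 ± 0.0532 FPKM in control and 0.214 ± 0.0494 FPKM with UDCA (SD, n = 3 each), 9.28-fold lower. Both genes were called lower in the fit with no filter. Exons shared with other genes also made up 17.7% of SGO1, 12.5% of PLK1, 11.7% of CENPU and 10.2% of BUB1B.

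The other cytokinesis genes fell. ANLN (anillin), which joins the contractile ring to the membrane, was at 61.4, 60.1 and 63.1 FPKM in control and at 0.322, 0.244 and 0.265 FPKM with UDCA (log2 change -5.61, SE 0.0396, adjusted p = 3.66e-10, limma). CEP55, which brings the abscission machinery to the midbody, was at 33.2, 32.5 and 34.9 FPKM against 0.134, 0.269 and 0.216 FPKM (0.615%). ECT2, the exchange factor that activates RHOA at the cell equator, was at 29, 27.2 and 27.0 FPKM against 1.66, 1.85 and 1.34 FPKM (5.82%, log2 change -3.46, SE 0.0755, adjusted p = 3.13e-08, limma). ECT2 thus kept more of its message than ANLN and CEP55, and stayed above 1 FPKM in every UDCA library.

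Because the loss was unequal, the genes that make up the mitotic message changed. In control libraries TPX2 (7.46%), UBE2C (7.45%), CDC20 (6.23%), TOP2A (4.97%) and BIRC5 (4.85%) were the largest contributors to the summed level of the 56 genes. With UDCA the largest were CDC25B (20.9%), CDC16 (18.4%), BUB3 (13.4%), CDC27 (9.82%) and ANAPC5 (8.32%), together 70.9% of a sum that was itself 6.08% of control. In control CDC25B ranked 9 of the 56, at 3.36%, and CDC27, BUB3, CDC16 and ANAPC5 ranked 23, 32, 44 and 45. By role, the inner kinetochore went from 123 to 5.04 FPKM, the outer kinetochore from 292 to 8.62, the checkpoint from 112 to 16.9, the passenger complex with SGO1 from 212 to 4.82, kinases with CDC25 and FOXM1 from 257 to 28.4, the anaphase group from 414 to 48.5, spindle and chromosome genes from 391 to 2.67, and cytokinesis from 123 to 2.12 FPKM.

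**Figure D5:**
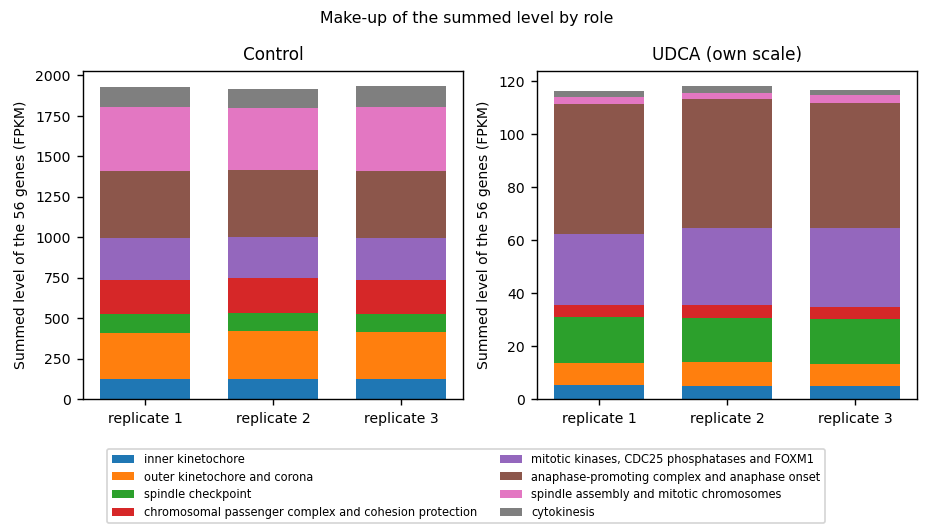
Stacked bars of the summed level of the 56 genes in each library, in FPKM from 0, coloured by role group, with control on the left and UDCA on the right on its own, smaller scale. The 3 bars of each group are alike, and spindle and chromosome genes go from 391 FPKM to a thin band of 2.67 FPKM while the anaphase group is the largest band in both, at 414 and 48.5 FPKM.

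A further 85 genes of the same pathways, listed by function with earlier results known, were also lower for the most part. Of the 81 tested, 63 were lower, 12 were higher and 6 were not called, where 35.7% of all tested genes were lower and 45.1% higher, and 4 were under the filter. Of those tested, 20 had at least 1 UDCA library under 1 FPKM and passed the filter only with control libraries counted, which favours falls. The median of the 85 was 56.4% of control, and 2 of them, HJURP and MYBL2, were left at under 1%. Among 21 other kinetochore genes, 17 were lower and 2 higher. HJURP, the chaperone that deposits CENPA, was at 51.3, 49.6 and 48.7 FPKM in control and at 0.229, 0.246 and 0.123 FPKM with UDCA (0.400%), and OIP5, of the MIS18 complex that licenses this deposition, was left at 1.63%. BOD1, an inhibitor of the PP2A phosphatase that acts in chromosome biorientation, rose 2.90-fold, from 23.6, 23.9 and 23.9 FPKM to 66.3, 71.2 and 69.7 FPKM (log2 change 1.5, SE 0.0298, adjusted p = 2.12e-08, limma), and MIS12, of the complex that joins inner and outer kinetochore, rose 1.25-fold.

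All 10 other checkpoint and cohesion protection genes fell, where 35.7% of all tested genes were lower and 45.1% higher. SGO2 was left at 2.98% and TRIP13, an ATPase that acts on MAD2, at 16.0%. Of the 15 other genes of the anaphase-promoting complex, 7 were lower, 4 higher and 3 not called, beside the same 35.7% and 45.1%. UBE2S, which extends ubiquitin chains for the complex, was at 130.0, 133 and 128 FPKM against 18.1, 17.7 and 20.2 FPKM (14.3%), and FBXO5 (EMI1), an inhibitor of the complex, was left at 10.9%. Of 13 other kinases and regulators, 8 were lower and 3 higher, again beside these shares of all tested genes. PKMYT1, which places the inhibitory phosphates that CDC25 removes, was left at 1.15%, and MASTL (Greatwall), which restrains PP2A in mitosis, at 17.2%. PLK3, a polo-like kinase known from stress responses, rose 11.9-fold, from 2.40, 2.64 and 2.28 FPKM to 28.9, 28.8 and 29.7 FPKM (log2 change 3.13, SE 0.0456, adjusted p = 5.67e-09, limma), while PLK1 and PLK4 fell and PLK2 was left at 31.7%. CDC14B, a phosphatase that opposes mitotic kinases, rose 2.20-fold, from 3.46, 2.97 and 3.37 FPKM to 7.22, 7.05 and 7.26 FPKM.

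Of 18 other spindle and cytokinesis genes, 16 were lower and 1 was higher, where 35.7% of all tested genes were lower and 45.1% higher. SPAG5 (astrin), which stabilises attachments, was left at 1.18%, and RACGAP1, the partner of ECT2 at the midzone, at 6.64%. HAUS7, an augmin subunit and the gene called higher, was at 0.151, 0.205 and 0.199 FPKM against 1.28, 1.32 and 1.37 FPKM, with 35.6% of its exon bases shared with TREX2. It passed the filter only with UDCA libraries counted, which favours a rise, and it had 38 reads in all control libraries. Its call is therefore not read further. Of 8 genes for the MuvB core and its partners, which bind CHR elements, 5 were lower and 2 higher, beside the same shares. MYBL2 (B-MYB), the partner that activates mitotic promoters, was at 70.1, 68.0 and 70.2 FPKM in control and at 0.135, 0.211 and 0.148 FPKM with UDCA (0.238%, log2 change -5.92, SE 0.0392, adjusted p = 2.66e-10, limma). RBL1 (p107) was left at 16.0%, and RBL2 (p130), the pocket protein of the repressive form of the complex, rose from 10.9, 11.6 and 11.6 FPKM to 14.2, 14.4 and 14.0 FPKM (log2 change 0.30, SE 0.0340, adjusted p = 0.000138, limma). LIN54, the subunit that touches the CHR, rose from 3.82, 3.31 and 3.81 FPKM to 5.17, 5.45 and 4.85 FPKM (log2 change 0.41, SE 0.0649, adjusted p = 0.000861, limma). The core subunits LIN9, LIN52 and RBBP4 were called lower, left at 14.3%, 75.0% and 86.5% of control, and LIN37 was under the filter.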

How the data were processed

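Polyadenylated RNA libraries of LN229 cells, 3 control and 3 UDCA, were prepared for Illumina sequencing, per the labels' protocols. Tools named in the submitters' processing notes are Bowtie2 2.0.6 and HISAT2, and the genome build is GRCh38, without a stated role for either tool. How reads were counted, on which strand and after which filters is not given in the sources used here. In all, the authors deposited 1 table with a value per gene and library, and its unit, FPKM, was inferred: the deposited FPKM values times merged exon length in GENCODE 29 are whole multiples of 1 step per library for 100% of values within 0.01. Symbols and positions were taken from GENCODE 29, which matched all 33890 identifiers.

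A gene was tested if 3 or more of the 6 libraries had 1 FPKM or more (14380 genes), by limma 3.58.1 in R 4.3.3 on log2(FPKM + 1), 2-sided, with group as the only term and Benjamini-Hochberg adjustment at 0.05 over all genes tested. The fit was also run on simulated data with fewer changed genes and smaller changes than seen here, so that run does not test it for falls of this size. Between replicates, chi-square over its degrees of freedom was 1.67 to 2.73 (genes with 20 or more reads), above sampling noise, so no library is a duplicate deposit by this measure. Tables and plots used Python 3.11.15, pandas 2.3.3, scipy 1.17.1 and matplotlib 3.10.9. Ratios of reads carry exact binomial intervals at 95% that cover counting error only. Promoter windows came from RefSeq (GRCh38.p14), and each motif was searched on both strands.

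The genes, the pathway lists and the rules were chosen with earlier results of these data known. Genes described in full were 22 set by name, those higher, not called or not tested, those with the largest and smallest change in each role group, and the 2 largest falls and rises of each pathway list. Others were named where their group is described. Alternatives were 3 other scalings, no filter, a pseudocount of 0.1, a replicate block, voom on recovered reads, leaving out each library in turn, and motifs in only the 100 bases before the start. The replicate numbers are not stated to pair libraries, and same-numbered libraries did not deviate together.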

Additional observations from a re-analysis of the deposited data

How the results depend on the processing

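With no filter, 55 mitotic genes were lower and 1 higher. With the filter the counts were 53 and 1 under every other alternative run. Each of the 54 called genes kept its call under all 13 alternatives. For the 40 genes that needed control libraries to pass the filter, this says little about stability. The median log2 change of tested mitotic genes, -4.01, was -4.06 with median-ratio scaling, -4.05 with totals without mitochondrial genes, -6.07 with a pseudocount of 0.1 and -6.90 with voom on recovered reads, the last 2 by construction since a smaller pseudocount compresses low values less. It lay between -4.03 and -3.99 when 1 library was left out. The summed level was 16.5-fold lower, 17.8-fold with median-ratio scaling, which moves the median of all tested genes from 0.10 to 0.00, and 17-fold with totals without mitochondrial genes. It was 16.4-fold to 16.5-fold without any 1 library. TTTGAA was in 55.2% of windows and in 24.1% of the 100 bases before the start, where 4.61% of all windows had it. With the replicate number as a block, 53 mitotic genes were lower, 1 was higher, 64 other pathway genes were lower and the median log2 change was -4.01. Same-numbered libraries correlated at 0.0143, -0.00119 and 0.00725, so no shared deviation was seen. With 3 libraries per group this cannot show whether they were paired in the experiment. Other pathway genes called lower ranged from 62 to 66 and called higher from 12 to 13. CENPP was lost without the filter, and NEK7 without the filter or without any 1 control library. NEK6 was gained as lower under 6 settings, the 3 scalings, the block and voom among them, ANAPC1 under the 3 scalings and ANAPC4 under median-ratio scaling, and CDC26 as higher without UDCA replicate 3. Genes with fewer than 10 reads in all UDCA libraries, such as SPC24, SPC25, SGO1 and CDC25C, are near the detection limit, so the size of their fall is bounded by depth.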
